A study of Arabidopsis thaliana with 22 samples.

Results

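The genes described here are 44 of the 16722 single-gene probe sets of the array, chosen because ABA raised their transcripts in wild type leaves but not in the double mutant ost1-2 sal1-8. They were selected on measured values. Their wild type mean was 1.2 to 3.9 higher after ABA than after mock treatment on the log2 scale, with every ABA array above every mock array, and the ABA mean of ost1-2 sal1-8 lay less than 0.3 above its mock mean, or below it. The rule also asked for an ost1-2 mock mean less than 1 above the wild type mock mean and for a log2 level of 4 or more in the highest of the 8 group means, and it left out 7 genes by name, LTI30, COR47, KIN1, KIN2, COR15A, COR15B and PUB19. Of 273 genes that met all of this apart from the limit in the double mutant, 44 lay under 0.3, 155 lay from 0.3 to under 1, and 74 lay at 1 or more and are called the restored class below. A further 3 probe sets shared by several genes and 88 without a gene in the array annotation met the same values and are not described.

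Leaves were taken from soil-grown Arabidopsis plants, 30 days old by the labels and 4 weeks old by the paper, after a spray of 20 µM ABA or of a mock solution, and RNA was hybridised to 22 Affymetrix Gene 1.0 ST arrays. Wild type is the F1 hybrid of the ecotypes Col-0 and Ler. The sal1-8 mutant (labelled alx8) has the Col-0 background and ost1-2 the Ler background, and ost1-2 sal1-8 was selected from the offspring of a cross between those mutants, so that every comparison between genotypes also holds differences between ecotypes. Each group had 3 arrays, except the mock and ABA groups of ost1-2 with 2. The ABA samples are labelled 45 min, the time that the paper's array methods also give, whereas the protocol in the labels gives 2 h. Each sample was a leaf of a biological replicate according to the paper, and p-values measure the spread between these samples. Each array was given a letter here, from A to G, for a stretch of neighbouring sample numbers, called a run. The labels hold no such letter, and several cuts between runs fall between consecutive numbers where the treatment changes. Each run, as cut here, held only mock or only ABA arrays, so that run and treatment cannot be told apart. This follows in part from where the cuts were placed, and the labels name no batch.

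ABA (abscisic acid) is the hormone with which plants answer drought. Its receptors inhibit protein phosphatases and thereby release kinases of the SnRK2 family, of which OST1 is the one that closes stomata in guard cells. SAL1 is a chloroplast phosphatase that degrades the nucleotide PAP, which accumulates in sal1 mutants and inhibits exoribonucleases. The comparison of ost1-2 with ost1-2 sal1-8 asks which responses to ABA lost with OST1 return when PAP accumulates. In whole leaves a change in RNA per cell and a change in the share of cells cannot be told apart.

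A probe set was called at an adjusted p under 0.05 (limma, Benjamini-Hochberg over 13843 tested probe sets) and a fold change above 1.5. The median level of all probe sets ran from 4.60 to 5.0 over the 22 arrays. Across probe sets, the mean correlation (r) of an array with its replicates was 0.959 to 0.982, lowest in wild type mock F, which also received the lowest array weight, 0.378. That array was the lowest of the wild type mock arrays for 26 of the 44 genes, against 40.2% of all tested probe sets. Without it the rule chose 41 genes, 33 of them among the 44. The labelled tissue could be checked against few markers. Of 54 markers of leaf and root cell types, 6 were tested, and the only one called in any of the responses to ABA was FAMA, a regulator of guard cell formation, which was 1.19 lower after ABA in wild type (adjusted p = 7.5e-04). The part of cell type shares in the results was not tested.

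Known ABA genes could hardly be looked for among the 44. Of 395 genes on 20 lists of ABA, stress, photosynthesis and cell type genes, the array annotation used here names 24, and the probe sets of the others were not identified, so that they may be among those without a gene. The 24 were tested and 0 of them were among the 44. The one list with at least 3 tested genes was that of the dehydration proteins, and its 6 were all left out by the rule: 6 were called upwards in wild type, 4 in sal1-8, 4 in ost1-2 sal1-8 and 0 in ost1-2. Of the 44, 7 had a gene symbol, 17 had a known product, 6 were listed as hypothetical proteins and 21 had neither a name nor a role in the sources used here. The 17 included 6 of the cell surface and wall, 3 of protein turnover, 4 enzymes of metabolism, 2 of signalling and transcription, and 2 of stress and late embryogenesis. They lay on all 5 chromosomes, with 12 (27.3%) on chromosome 4, which held 15% of the tested genes with a known chromosome. Their highest group means had a median log2 level of 6.48 (4.36 to 9.84), against 7.16 in the restored class and 6.13 over all tested probe sets, and their wild type mock levels a median of 4.26, against 5.30 and 5.42.

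**Figure D1:**
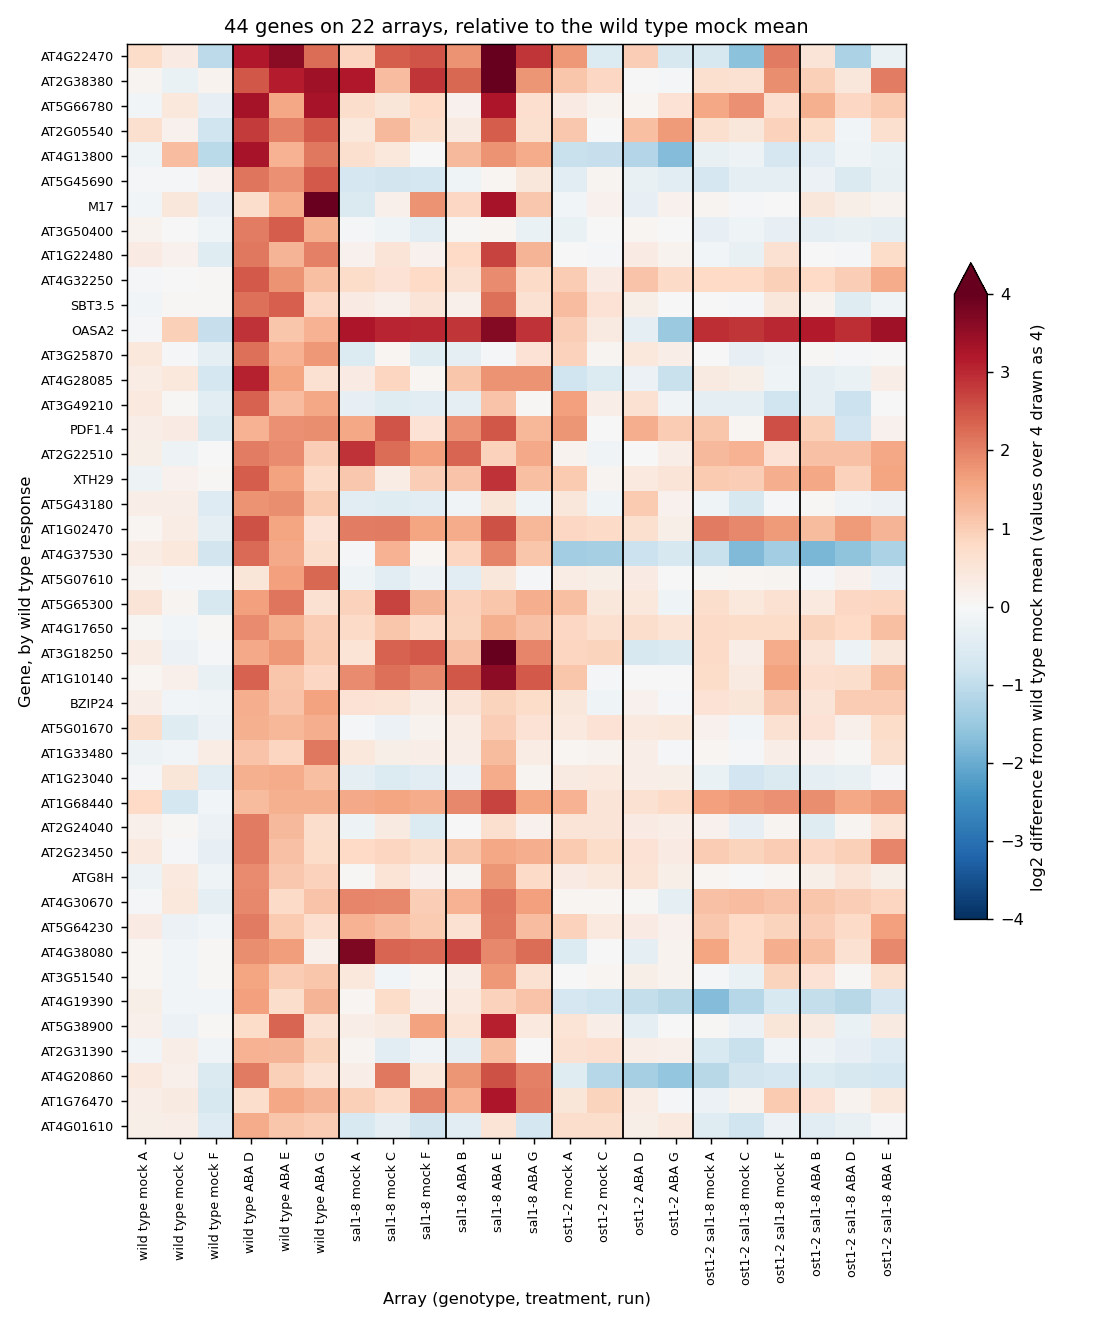
Log2 level of each of the 44 genes (rows, by their wild type response) on each of the 22 arrays (columns, in 8 groups), relative to the gene's wild type mock mean, with values over 4 drawn as 4. The wild type ABA arrays are higher for every gene because the rule chose them so, and sal1-8 ABA E holds the highest value of the sal1-8 ABA columns for 38 of the 44 genes.

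The wild type response, which chose the genes, had a median of 1.47 (1.2 to 3.02), and 37 of the 44 were called upwards, where 6.36% of all tested probe sets were. The largest belonged to AT4G22470, a protein of the protease inhibitor, seed storage and lipid transfer family. Its log2 levels were 6.40, 6.0 and 4.64 on the wild type mock arrays A, C and F, and 8.89, 9.30 and 7.93 on the ABA arrays D, E and G, a difference of 3.02. AT2G38380, at 1.36 to 1.77 after mock treatment, was next at 3.0 higher, but another probe set that it shares with other genes was 0.83 lower after ABA, so that the probe sets disagree. AT5G66780 was 2.72 higher and the glycine-rich protein AT2G05540 was 2.43 higher. The bright AT2G05540 ran from 6.38 to 7.81 on the mock arrays and from 9.20 to 9.99 on the ABA arrays.

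The next were AT4G13800 (2.26), AT5G45690 (2.13), M17 (2.04), a late embryogenesis gene, and AT3G50400 (1.96), followed by AT1G22480 (1.83), the protein kinase AT4G32250 (1.82), SBT3.5 (1.80), a subtilisin-like protease, and OASA2 (1.78), an isoform of the cysteine-forming O-acetylserine (thiol) lyase. M17 owed its rank largely to a single array, with 3.61, 4.41 and 6.86 on ABA arrays D, E and G, and was not called (limma, adjusted p = 0.058). AT5G45690 and AT3G50400 were instead the most even of these, the former at 2.96, 2.96 and 3.22 on the mock arrays and at 5.17, 4.87 and 5.50 on the ABA arrays, the latter at 3.43, 3.30 and 3.12 and at 5.33, 5.69 and 4.71. The smallest wild type responses in the set were those of the cathepsin B protease AT4G01610 (1.2) and of AT1G76470 (1.21). Besides M17, the genes not called in wild type were PDF1.4, AT3G18250, AT4G38080, AT5G38900, AT4G20860 and AT1G76470.

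In ost1-2 sal1-8 the response of the 44 ranged from -1.13 to 0.28. It was below 0 in 15 and from 0 to under 0.3 in 29, and 0 were called in either direction, where 1.4% of all tested probe sets were called upwards and 0.419% downwards; the rule set this. The lowest was that of PDF1.4, a defensin-type peptide, which was uneven, with 4.98, 3.94 and 6.45 on the mock arrays A, C and F and 4.83, 3.11 and 4.05 on the ABA arrays B, D and E. The genes just inside the limit were AT1G23040 (0.28), a hydroxyproline-rich glycoprotein, ATG8H (0.28), a protein of the autophagosome membrane, and the putative aldose reductase AT5G01670 (0.27), and those just outside were AT4G18580 (0.30), AtLEA4-1 (0.32) and AT2G31990 (0.32). The standard error of these 6 double mutant responses was 0.25 to 0.36, so that the limit separated values closer together than their error. Without any single array of the groups used by the rule, 34 to 78 genes met it, 28 to 44 of them among the 44.

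A lack of response did not always mean a low level. The mock level of ost1-2 sal1-8 was 1 or more above that of wild type in 10 of the 44, 0.5 to under 1 above in 9, less than 0.5 from it in 18, and 0.5 or more below in 7. A high mock mean of the double mutant makes a small response more likely to meet the rule, so these counts are descriptions. The highest was OASA2, at 6.91, 6.81 and 6.98 on the double mutant mock arrays and 7.11, 6.90 and 7.35 on the ABA arrays, against 3.9, 4.92 and 3.04 in wild type mock and 6.83, 5.05 and 5.33 in wild type ABA. Every double mutant array of OASA2, mock arrays included, lay above the wild type mock arrays, and its ABA mean was 1.39 above that of wild type.

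AT1G02470 was 1.90 above wild type in double mutant mock, AT1G68440, a hypothetical protein, 1.74 and AT5G66780 1.36. For AT1G68440 the double mutant ABA mean was 0.35 above the wild type ABA mean, and for AT4G38080 they were level, with a difference of 0.0024. For these 2 and OASA2 the label of a gene not restored held for the response and not for the level. The double mutant ABA mean reached the lowest wild type ABA array in 11 of the 44, which include these 3. Among the others of the 11, AT2G23450 (-0.086, SE 0.30), AT1G02470 (-0.12, SE 0.37) and AT5G64230 (-0.14, SE 0.34) lay below the wild type ABA mean by less than the error. So did XTH29 (-0.25, SE 0.42) and AT2G22510 (-0.34, SE 0.35). AT4G30670 (-0.30, SE 0.29), AT1G10140 (-0.55, SE 0.39) and AT5G65300 (-0.76, SE 0.41) lay below it by more than the error. Every double mutant ABA array lay below every wild type ABA array in 31 of the 44 (15.7% of all tested probe sets), among them all 25 whose double mutant mock level was less than 0.5 above wild type. The rule used both groups, and for these 25 its limits already place the double mutant ABA mean below that of wild type.

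At the other end, the double mutant mock level was 1.34 below wild type for AT4G37530, 1.17 below for the hypothetical protein AT4G19390, 0.84 below for AT4G20860 and 0.54 below for the fructokinase AT2G31390. AT4G37530 lay at 5.44, 4.57 and 4.93 on the double mutant mock arrays and 4.50, 4.71 and 5.06 on the ABA arrays, against 6.62, 6.76 and 5.59 in wild type mock. The ost1-2 arrays of AT4G37530 were as low, at 4.94 and 5.01 after mock treatment and 5.46 and 5.69 after ABA, while sal1-8 mock, at 6.25, 7.71 and 6.41, was near wild type. AT4G19390 had the same order, with 7.20 and 7.07 in ost1-2 mock, 6.12, 6.72 and 7.23 in double mutant mock, and 7.94, 8.59 and 8.06 in sal1-8 mock. The part of the Ler and Col-0 alleles in these levels cannot be told apart from that of the mutations.

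**Figure D2:**
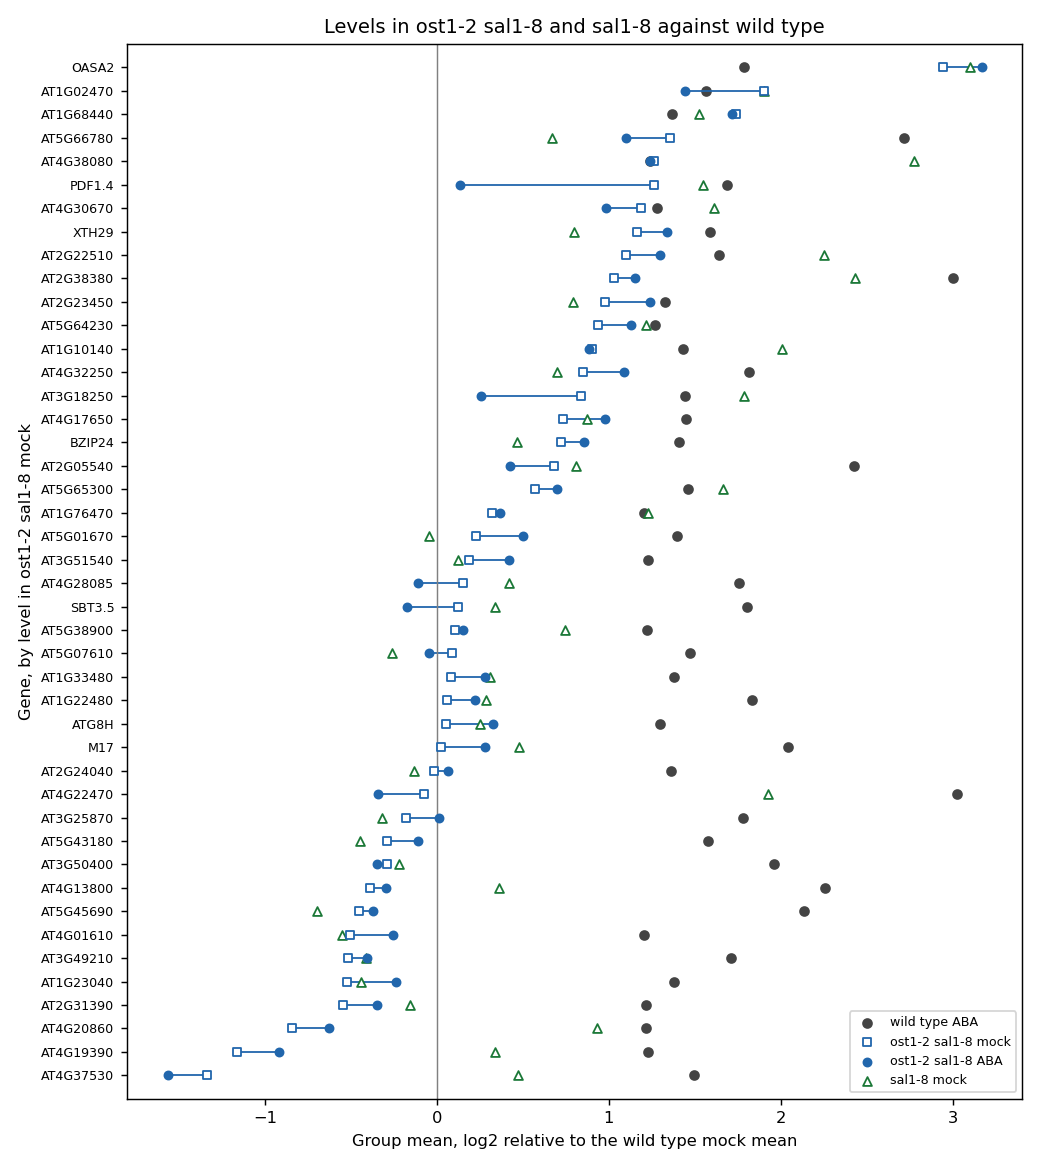
Group means of each of the 44 genes (rows) as the log2 difference from the wild type mock mean, with ost1-2 sal1-8 mock (open squares) joined to ost1-2 sal1-8 ABA (filled blue circles), wild type ABA (grey circles) and sal1-8 mock (open triangles). The filled blue circles reach or pass the grey circle for 3 genes, OASA2, AT1G68440 and AT4G38080, and for AT1G02470 the open square alone passes it. The joined blue symbols lie to the left of the grey line at 0 for the genes at the bottom.

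The sal1-8 mock level was itself 1 or more above wild type mock in 14 of the 44 (31.8%), where 7.05% of all tested probe sets and 2 of the 74 of the restored class were. The rule used the wild type mock arrays, and 3 of the 14, AT2G22510, AT4G30670 and AT1G76470, met its limit on the level only in sal1-8, so the count is a description. sal1-8 also differs from wild type in ecotype. The largest differences were those of OASA2 (3.1), AT4G38080 (2.78), AT2G38380 (2.43), AT2G22510 (2.25) and AT1G10140 (2.01), a hypothetical protein. Of the 10 genes that were 1 or more above wild type in double mutant mock, 8 were also 1 or more above it in sal1-8 mock, the other 2 being AT5G66780 (0.67) and XTH29 (0.80), an enzyme that remodels xyloglucan in the cell wall. Wild type ABA was the highest of the 8 group means for 27 of the 44, sal1-8 ABA for 12, sal1-8 mock for 3, and each of the double mutant groups for 1.

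The rule used the sal1-8 arrays in its limit on the level, and not their response to ABA. AT1G76470, AT2G22510 and AT4G30670 reached the level of 4 only in sal1-8, and the other 41 genes reached it in groups other than sal1-8 and ost1-2 ABA. Of the 44, 1 (2.27%) was called upwards in sal1-8, close to the 1.38% of all tested probe sets, and 0 were called downwards, where 0.73% were. At an unadjusted p under 0.05 there were 11, all upwards, where there were 1860 of the 13843 tested probe sets, 919 of them upwards. In the restored class there were 69 of 74, all upwards. The median response was 0.56 (-0.67 to 1.34), with 40 above 0 and 4 below, against a median of -0.02 and 46.5% above 0 over all tested probe sets. In 11 of the 44 (25%) the ABA arrays were all above the mock arrays, as in 8.39% of all tested probe sets, and in 0 every ABA array lay below, as in 11.2%. Over the 41 alone, 1 was called, the median was 0.58, 38 were above 0 and 11 had arrays that did not overlap. All 44 responses in sal1-8 were smaller than the wild type response that chose the gene. In the restored class, the median was 1.26, 74 of 74 were above 0, 40 were called and 63 had arrays that did not overlap.

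The called gene was AT5G45690, whose product is not named in the sources used here. Its log2 levels in sal1-8 were 2.39, 2.32 and 2.34 on the mock arrays A, C and F and 2.86, 3.14 and 3.49 on the ABA arrays B, E and G. These levels are low. All lay below the median level of all probe sets on any array, and the mock arrays lay below the level of 3 asked of tested probe sets. The gene met the limits on the level only through wild type ABA, and detection p-values were not used here. The ABA arrays were all higher, by 0.82 on average (SE 0.19, adjusted p = 0.026, limma, n = 3 and 3). The sal1-8 mock level was 0.70 below that of wild type mock, so that the sal1-8 ABA arrays lay around the wild type mock level, at 2.96 to 3.22, and below all wild type ABA arrays. On the double mutant ABA arrays it was 2.46 to 2.8. Its call ended in the fit of sal1-8 mock and ABA alone (adjusted p = 0.096) and without any one of mock A (0.097), mock C (0.063), mock F (0.090), ABA E (0.093) or ABA G (0.15), while without ABA B it held (0.015). The number of the 44 called was 0 without mock A, mock F, ABA E or ABA G, 1 without mock C (AT4G20860 in its place) and 3 without ABA B (with AT1G22480 and AT1G23040). The share of all tested probe sets called without these arrays is not given here.

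Much of the sal1-8 response came from a single array. sal1-8 ABA E was the highest of the sal1-8 ABA arrays for 38 of the 44 (86.4%), against 32.3% of all tested probe sets and 41 of 74 in the restored class. The median of the 44 above their sal1-8 mock mean was 1.19 on ABA E, 0.27 on ABA G and 0.055 on ABA B, and on these arrays 39, 22 and 12 of the 44 lay above every sal1-8 mock array, as did 27.2%, 24.9% and 23.7% of all tested probe sets. On ABA B, 12 of the 44 was thus close to the share of all probe sets. Without ABA E the median response of the 44 was 0.17, with 30 above 0, whereas the restored class kept a median of 1.14. Without ABA E, 11 of the 44 still had sal1-8 ABA arrays all above the mock arrays, as did 12.2% of all tested probe sets, and without ABA B or mock C there were 21 and 17, where the share of all tested probe sets was 13.88% and 16.3%. As a mean over the 44, relative to the wild type mock mean, the sal1-8 mock arrays lay at 0.70, 0.86 and 0.72 and the ABA arrays B, E and G at 0.82, 1.98 and 1.05 (1.29 ± 0.61, SD, n = 3). ABA E thus lay above the wild type ABA arrays, which ran from 1.4 to 1.95, and B and G lay below them.

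**Figure D3:**
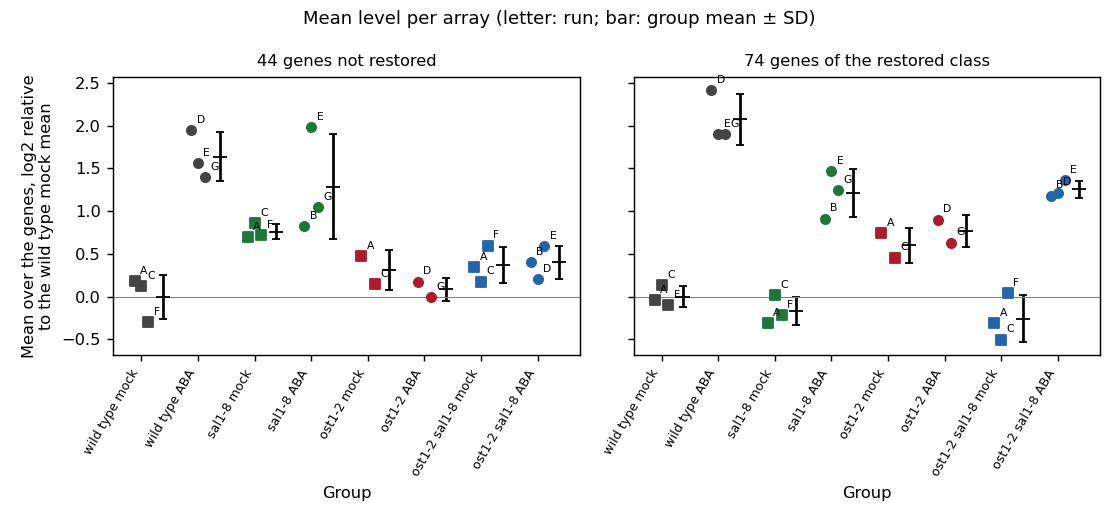
Mean over the 44 genes (left) and over the 74 genes of the restored class (right) on each array, as the log2 difference from the wild type mock mean, with squares for mock and circles for ABA, a letter for the run, and a black bar for the group mean ± SD. In the left panel the sal1-8 ABA array E lies at 1.98 and B and G at 0.82 and 1.05, near the sal1-8 mock arrays, and the double mutant arrays lie between 0.18 and 0.60 under both treatments.

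The largest sal1-8 responses differed in how they rested on that array. AT1G22480 was 1.34 higher after ABA (SE 0.37, adjusted p = 0.068), with 3.92, 4.25 and 3.89 on the mock arrays and 4.55, 6.45 and 5.08 on the ABA arrays B, E and G. M17 followed at 1.26, with ranges that overlapped, 2.34 to 4.72 after mock treatment and 3.73 to 6.22 after ABA. AT4G22470 (1.05), AT1G76470 (0.99) and XTH29 (0.95) were likewise highest on ABA E, at 9.97, 5.99 and 6.34. The 3 others of the top 8 were also highest on ABA E but rested less on it. Without ABA E their responses were 1.02 (AT4G13800), 1.04 (AT4G28085) and 0.95 (AT4G20860). AT4G13800, at 5.24, 5.01 and 4.62 after mock treatment and 5.89, 6.38 and 6.07 after ABA, was 1.16 higher (SE 0.44, adjusted p = 0.23), AT4G28085, at 3.53 to 4.31 and 4.58 to 5.26, was 1.16 higher (SE 0.44, adjusted p = 0.23), and AT4G20860, at 4.58, 6.40 and 4.72 and then 6.06, 6.86 and 6.31, was 1.17 higher, with a high array, C, among its mock arrays.

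Without ABA E the direction turned for 4 of the 20 genes named for their wild type or sal1-8 response, AT2G38380 (-0.40), AT5G66780 (-0.25), AT2G05540 (-0.31) and OASA2 (-0.23). On ABA E these were at 7.28, 6.91, 9.61 and 7.63, and on ABA B and G they lay at or near their sal1-8 mock levels. AT3G50400, even across wild type, was 0.17 higher in sal1-8 after ABA, with all 6 sal1-8 arrays between 2.82 and 3.37, below the lowest wild type ABA array at 4.71. The 5 lowest responses in sal1-8 were those of AT2G22510 (-0.67), AT5G65300 (-0.51), AT4G38080 (-0.50), AT1G02470 (-0.11) and OASA2 (0.039). All 5 were 1 or more above wild type in sal1-8 mock. AT2G22510 lay at 5.01, 4.33 and 3.74 on the sal1-8 mock arrays and 4.44, 3.02 and 3.62 on the ABA arrays, all of them above the wild type mock arrays at 1.90 to 2.34.

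**Figure D4:**
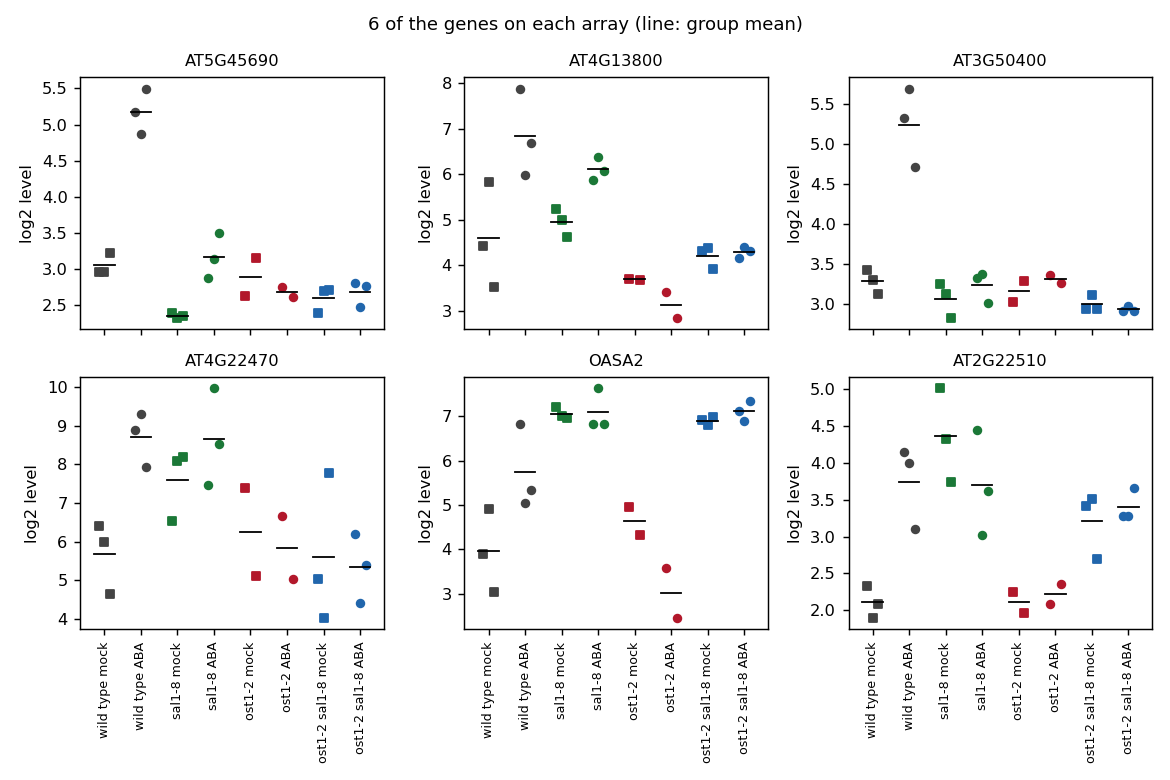
Log2 level of 6 of the 44 genes on each array by group (squares mock, circles ABA, line the group mean), each panel with its own vertical scale. AT5G45690 and AT3G50400 are highest on the wild type ABA arrays, AT4G13800 is also higher on all sal1-8 ABA arrays, and OASA2 and AT2G22510 are high in both sal1-8 and ost1-2 sal1-8 without ABA.

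Split by their double mutant mock level, the 10 genes 1 or more above wild type had a median sal1-8 response of 0.22, with 7 above 0 and 2 with arrays that did not overlap, and the 25 less than 0.5 above had a median of 0.66, with 25 above 0 and 7 that did not overlap. The share of all tested probe sets that did not overlap in this direction was 8.39%, as above. The sal1-8 call lay among the 25. The difference between these parts was not tested, and groups this small allow no reading of their shares. By role, all 6 cell surface and wall genes had sal1-8 responses above 0 (0.33 to 1.05), and in 3 of them, XTH29, AT1G23040 and the wall-associated receptor kinase AT2G23450, every ABA array was above every mock array. AT1G23040 lay at 5.52 to 5.70 after mock treatment and at 5.84, 7.56 and 6.17 after ABA, and AT2G23450 at 8.51 to 8.68 and 8.93 to 9.35. The genes of protein turnover, SBT3.5, ATG8H and AT4G01610, were 0.37 to 0.66 higher and overlapped, and of the 4 metabolic enzymes, at 0.039 to 0.66, AT5G01670 alone did not overlap, with 7.44 to 7.82 after mock treatment and 7.98 to 8.65 after ABA. The transcription factor BZIP24 (0.25) and the kinase AT4G32250 (0.40) overlapped, as did M17 and AT2G24040 (0.42), a low temperature and salt responsive protein. In the 6 hypothetical proteins the range was -0.51 to 0.83.

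After ABA, the 44 genes were mostly higher in sal1-8 than in ost1-2. In this comparison the SAL1 and OST1 genotypes and the ecotypes Col-0 and Ler cannot be told apart. The rule used these ABA groups themselves only in its limit on the level. It also capped ost1-2 mock, which favours genes that are low in ost1-2 after ABA too, so the counts are descriptions. Of the 44, 18 (40.9%) were called higher in sal1-8, where 11.5% of all tested probe sets were, and 0 were called lower, where 10.7% were. The median difference was 1.03, with 37 above 0. In 28 every sal1-8 ABA array lay above both ost1-2 ABA arrays, as in 24.4% of all tested probe sets, and in 0 every one lay below, as in 33.1%. AT1G76470, AT2G22510 and AT4G30670, which met the limit on the level only in sal1-8, were among the 18. Over the other 41 genes, to which the cap on ost1-2 mock also applied, 15 (36.6%) were called higher and 0 lower. Their median was 0.91 and 25 had arrays all above. In the restored class 16 of 74 were called higher and 3 lower. Without ABA E, 14 of the 44 were called higher, and AT4G01610 was called lower (-0.86, adjusted p = 0.024). The share of all tested probe sets called without ABA E is not given.

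OASA2 had the largest difference, 4.08 (SE 0.49, adjusted p = 6.0e-06, n = 3 and 2), with 6.82, 7.63 and 6.83 on the sal1-8 ABA arrays and 3.58 and 2.45 on the ost1-2 ABA arrays. It was followed by AT4G20860 at 3.54 (adjusted p = 1.6e-05), AT2G38380 at 3.26, AT3G18250 at 3.09 and AT4G13800 at 2.98. AT4G20860 lay at 2.97 and 2.77 in ost1-2, below its wild type mock arrays at 3.72 to 4.7, and at 6.06 to 6.86 in sal1-8. Of the 18, XTH29 (1.30, adjusted p = 0.0496) and AT4G22470 (2.81, adjusted p = 0.041) were the nearest to the threshold, and 11 were also 1 or more above wild type in sal1-8 mock.

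In ost1-2, 0 of the 44 were called in either direction after ABA, where 0.0217% of all tested probe sets were called upwards and 0.0144% downwards (limma, n = 2 and 2). At an unadjusted p under 0.05 there was 1, downwards, where there were 1291 of the 13843 tested probe sets, 668 of them upwards. The ost1-2 mock arrays were used by the rule as an upper limit, so the responses are descriptions. Their median was -0.19, with 14 above 0 and 30 below. Both ABA arrays lay below both mock arrays in 18 (40.9%), where 24.6% of all tested probe sets did, and above them in 4, where 22% did. The lowest responses were those of OASA2 (-1.61), with 4.94 and 4.32 on the mock arrays, AT3G18250 (-1.47), with 5.06 and 5.10 on the mock arrays and 3.57 and 3.64 on the ABA arrays, and AT2G38380 (-0.98). The highest were those of AT2G05540 (0.93), at 8.26 and 7.17 and then 8.39 and 8.90, of AT4G37530 (0.60) and of AT5G43180 (0.47). Both ost1-2 ABA arrays lay below every wild type ABA array in 42 of the 44 (19.8% of all tested probe sets), a count that the rule favours, since it asked for raised wild type ABA arrays and capped ost1-2 mock. AT2G05540 was among the 42, its wild type ABA arrays starting at 9.20.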

How the data were processed

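The authors deposited log2 intensities of 38408 probe sets on 22 arrays, which per the paper's methods came from RMA (background correction, quantile normalization, median polish); the submitters' processing notes name oligo 1.28.0, limma 3.20.1, R 3.1.0, Affymetrix Power Tools and Partek. All columns were used, and 0 belonged to other samples. Groups were taken from the labels. Of these probe sets the platform annotation gives 16722 to one gene each and 759 to several, 17481 in all, and leaves 20927 unnamed. RefSeq (TAIR10.1) holds a record for each of the 44 genes, and further product names are those of the paper's gene table, from which no values were taken.

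A limma 3.58.1 model in R 4.3.3 of the 8 group means, with empirical Bayes moderation, was fitted to the 13843 named probe sets whose highest group mean was 3 or more, after a test on simulated data. Samples were not paired, since the sample titles name no pairs. The runs give no pairs either, as each holds a single treatment, in part because of where the cuts were placed. The members, the lists and the tests were chosen with earlier results of these data known, so that patterns shown by the rule are no independent support. Named are the genes with the 12 highest wild type responses, the 8 highest and 5 lowest in sal1-8, the 3 highest and 3 lowest in ost1-2, the 4 highest and 4 lowest double mutant mock levels, the 3 nearest on each side of the limit of 0.3, and genes with a known product. Genes outside these were named after their values were seen. As alternatives, the set of tested probe sets, the minimum fold, the groups in the fit, the kind of moderation (trend, robust), the weighting of arrays, the normalization (quantile once more, or median centring), the run as a random block and the limits of the rule were varied, and each array was left out in turn. The counts of sal1-8 arrays that do not overlap and of responses above 0, without each sal1-8 array, the same alternatives for the highest wild type responses, and the counts over the 41 genes that reach the level limit outside sal1-8 and ost1-2 ABA, were added after seeing the data. The precision is limited by 2 or 3 arrays per group. Promoter and protein sequences were not analysed here.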

Additional observations from a re-analysis of the deposited data

Results flagged for a closer look

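For 3 of the 44 genes (6.82%) every sal1-8 ABA array lay above its mock arrays and every ost1-2 ABA array lay below, as for 2.07% of all tested probe sets, and the sal1-8 response exceeded the ost1-2 response by 1.72 on the log2 scale for AT4G13800, by 1.03 for AT1G23040 and by 1.02 for AT2G23450. The rule of the set used the ost1-2 mock arrays. In limma's test of this difference of responses 0 of the 44 passed (11 at an unadjusted p under 0.05), where 23 of all 13843 tested probe sets did. No group had the 4 arrays needed to look for a single outlying sample.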

How the results depend on the processing

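The number of genes that met the rule was 15 with a limit of 0 in the double mutant, 87 with a limit of 0.5 and 69 when each array was centred on its median, and 34 to 78 without a single array. The number called upwards in sal1-8 was 5 with array weights and 0 to 3 without a single array, and that called lower in sal1-8 than in ost1-2 after ABA was 1 with array weights and 0 to 1 without a single array. In sal1-8, 11 to 21 genes had arrays that did not overlap and 30 to 41 had a response above 0 when an array was left out, and the median response was 0.17 to 0.74. The call of AT5G45690 ended in 6 of its 14 alternatives. Directions of single genes were followed only for the 20 named for their wild type or sal1-8 response. The list that follows is therefore not complete over the 44, of which 40 were above 0 with all arrays and 30 without ABA E. Directions in sal1-8 turned for AT5G65300 (0.016 without mock C; -0.87 to 0.016 without a single array), AT1G02470 (0.12 without ABA G and 0.043 without ABA B; from -0.50), OASA2 (-0.093 with array weights, -0.0099 without mock F and -0.23 without ABA E; up to 0.17), AT2G38380 (-0.039 with array weights and -0.40 without ABA E; up to 1.55), AT5G66780 (-0.25 without ABA E; up to 1.284) and AT2G05540 (-0.31 without ABA E; up to 0.72), and the cause was not tested. The number called higher in sal1-8 than in ost1-2 was 12 to 24 over all alternatives run. No paired analysis was run, because the sample titles name no pairs. Each run, as cut here, holds a single treatment, in part because of where the cuts were placed. Between sal1-8 ABA and ost1-2 ABA only run G is shared. With the run as a random block, 1 gene was called upwards in sal1-8 and 20 higher in sal1-8 than in ost1-2 after ABA. The shares of all tested probe sets called in these alternative fits are not given, so the counts of calls stand without a background.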
